A study of Mus musculus with 6 samples.

Results

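Granule-gene-rich neutrophils of mouse lung are described here, as single cells chosen by their counts. A cell was kept with at least 500 unique molecular identifiers (UMIs, each 1 captured mRNA molecule), at least 300 genes and under 20% mitochondrial UMIs. It was called a neutrophil when at least 3 of S100a8, S100a9, Hdc, Il1r2, Csf3r and Cxcr2 were detected, when these made up at least 0.2% of its UMIs, and when it had no UMI of Cd3e, Cd79a, Ms4a6d, Marco, Cdh5 or Col1a2. A neutrophil with at least 2 UMIs of Ngp, Camp and Ltf together is called granule-rich. Granule-rich cells number 864 of 21132 neutrophils and of 76800 kept cells.

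The lungs came from male C57BL/6J mice aged 12 weeks and were taken on day 3, from 2 mice in each of 3 groups. SLC+LPS mice had Gq activation of SLC 7 times together with lipopolysaccharide (LPS, a bacterial wall component) at 1 mg/kg, LPS mice had LPS at 1 mg/kg, and control mice had PBS. The series title names the subcoeruleus nucleus, a small brainstem cell group, and the sympathetic nerve. The labels give neither the cells that carried Gq nor the timing of the activations. A group with activation alone is not analysed here.

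Neutrophils mature in bone marrow and fill 1 kind of granule after another. Primary granules with Mpo, Elane and Prtn3 come first, specific granules with Ngp, Camp, Ltf and Lcn2 follow under the transcription factor C/EBP epsilon (Cebpe), and gelatinase granules come last. Most granule genes are silent in mature neutrophils, so their mRNA is used as a mark of cells that left the marrow early.

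Ngp encodes neutrophilic granule protein, Camp the cathelicidin antimicrobial peptide and Ltf the iron-binding lactoferrin. The 250 bases before the start of each gene are shown because these 3 genes chose the cells and were detected together in few of them. They are from RefSeq (GRCm38.p6) and run 5′ to 3′ on the strand of the gene, with the C/EBP-type letters TTGCNNAA, or TTNNGCAA for the opposite strand, in capitals.
Ngp, chr9:110419558-110419807, plus strand: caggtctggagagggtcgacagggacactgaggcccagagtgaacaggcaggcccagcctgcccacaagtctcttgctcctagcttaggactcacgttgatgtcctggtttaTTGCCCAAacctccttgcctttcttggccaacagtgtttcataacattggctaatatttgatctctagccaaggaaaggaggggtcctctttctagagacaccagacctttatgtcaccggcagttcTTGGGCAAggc
Camp, chr9:109849457-109849706, minus strand: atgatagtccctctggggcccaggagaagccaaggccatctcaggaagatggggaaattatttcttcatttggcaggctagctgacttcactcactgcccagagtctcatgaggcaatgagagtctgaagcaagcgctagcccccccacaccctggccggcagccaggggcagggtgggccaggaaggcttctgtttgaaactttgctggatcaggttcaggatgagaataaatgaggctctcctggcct
Ltf, chr9:111019042-111019291, plus strand: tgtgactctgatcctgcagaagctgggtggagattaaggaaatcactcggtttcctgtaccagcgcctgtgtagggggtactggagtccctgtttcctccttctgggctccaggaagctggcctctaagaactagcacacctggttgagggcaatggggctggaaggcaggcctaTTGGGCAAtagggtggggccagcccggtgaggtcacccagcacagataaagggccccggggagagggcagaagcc
The letters were found at 2 positions for Ngp, 1 for Ltf and 0 for Camp. They occur in 3142 of 32851 mouse promoter windows of the same length (9.56%). A match describes letters and not a bound site.

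Whole libraries held 31589233 to 48641470 UMIs. Granule-rich cells summed to 61562 and 191366 UMIs in SLC+LPS, 498721 and 1763436 in LPS and 79024 and 19195 in control libraries. Control mouse 2, with 9 granule-rich cells, and SLC+LPS mouse 1, with 22, had the fewest UMIs, and control mouse 1 had 24 such cells. Granule-rich cells had a median of 2518 and 1466 UMIs in SLC+LPS, 2135 and 3566 in LPS and 2980 and 1884 in control libraries, and other neutrophils had 1329 and 1044, 1432 and 2356, and 1314 and 1025 in the same order. No cell barcode of a granule-rich cell was shared between libraries.

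In most granule-rich cells Ngp was the only gene of the 3 that was detected. Of 864 cells, 687 (79.5%) had Ngp with neither Camp nor Ltf, and 77 (8.91%) had all 3 genes. Over all granule-rich cells, myeloperoxidase (Mpo) had 2 UMIs, neutrophil elastase (Elane) 3, proteinase 3 (Prtn3) 11 and Cebpe 2. Low primary granule mRNA is also known of cells at the specific granule stage, so these values do not place the cells in a stage. Ngp-alone cells had a median of 3 and 3 Ngp UMIs in SLC+LPS, 4 and 4 in LPS and 2 and 2 in control libraries, and Camp and Ltf were fewer than Ngp also where all 3 were found, so undetected Camp or Ltf does not show that a cell lacked them. S100a8 and Csf3r are part of the rule for neutrophils, so their values are a description. S100a8, a calprotectin subunit, was detected in 90.9% to 100% of granule-rich cells per library, and Csf3r, the receptor for the growth factor G-CSF, in 54.2% to 95.3%.

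Cells with all 3 genes and cells with Ngp alone differed in many other genes. Values are UMI counts of summed cells scaled to a common total (CPM). Ngp had 62312 and 43951 CPM in all-3 cells of SLC+LPS mice, 44691 and 43285 CPM in those of LPS mice and 43747 and 49987 CPM in those of control mice, against 1578 to 2485 CPM in Ngp-alone cells over the 6 libraries. Chil3, a chitinase-like protein, had 2795 to 10888 CPM in all-3 cells and 115 to 1375 CPM in Ngp-alone cells. Lcn2, an iron-capturing lipocalin, had 4209 to 8108 CPM in all-3 cells and 1589 to 3514 CPM in Ngp-alone cells, and neither gene's ranges overlap. Serpinb1a, an inhibitor of neutrophil elastase, had 578 to 1353 CPM in all-3 cells and 0 to 265 CPM in Ngp-alone cells.

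Other genes ran the other way between these 2 kinds of cell. Retnlg, a resistin-like protein, was lower in all-3 cells than in Ngp-alone cells of each of the 6 libraries, at 5105 to 26904 CPM against 19652 to 40813 CPM. Other neutrophils had less Retnlg than all-3 cells in each library, at 2362 to 11204 CPM, so Retnlg was highest in Ngp-alone cells. Il1b, which encodes interleukin 1 beta, had 687 to 7516 CPM in all-3 cells, 10029 to 18610 CPM in Ngp-alone cells and 14885 to 21420 CPM in other neutrophils. Ccl3, a chemokine, was ordered as Il1b was in each library. It had 687 to 3875 CPM in all-3 cells, 2292 to 7701 CPM in Ngp-alone cells and 3804 to 16776 CPM in the others. The cells were sorted by Ngp, Camp and Ltf, so these values are a description with no test.

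**Figure D1:**
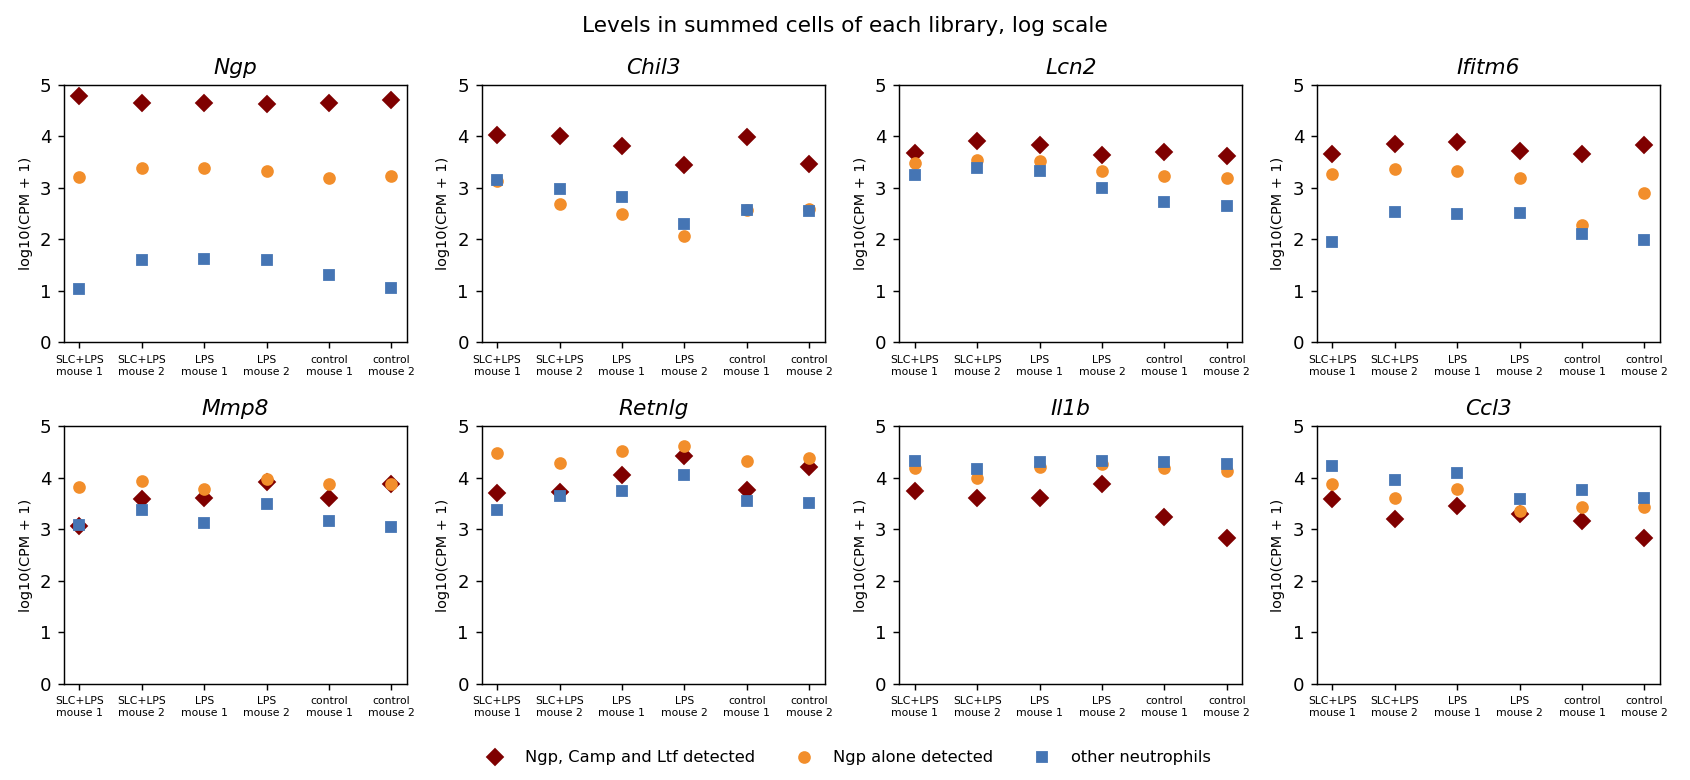
Level of 8 genes (y axes, log10 of CPM + 1) in the summed cells of each library (x axis), for cells with Ngp, Camp and Ltf all detected, cells with Ngp alone and other neutrophils. Chil3 stands highest in all-3 cells of each library (2795 to 10888 CPM), while Il1b and Ccl3 stand lowest there.

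The mixture was not the same in each library. All-3 cells were 3 of 22 and 3 of 124 granule-rich cells in SLC+LPS, 11 of 217 and 42 of 468 in LPS, and 14 of 24 and 4 of 9 in control libraries. Ngp-alone cells were 9 of 22 and 112 of 124 in SLC+LPS, 188 of 217 and 367 of 468 in LPS, and 6 of 24 and 5 of 9 in control libraries. The median granule-rich cell carried 2.5 and 3 UMIs of the 3 genes in SLC+LPS, 4 and 5 in LPS, and 131 and 4 in control libraries. Each difference between conditions given below is also a difference between mixtures, and values within Ngp-alone cells are given for part of the genes.

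**Figure D2:**
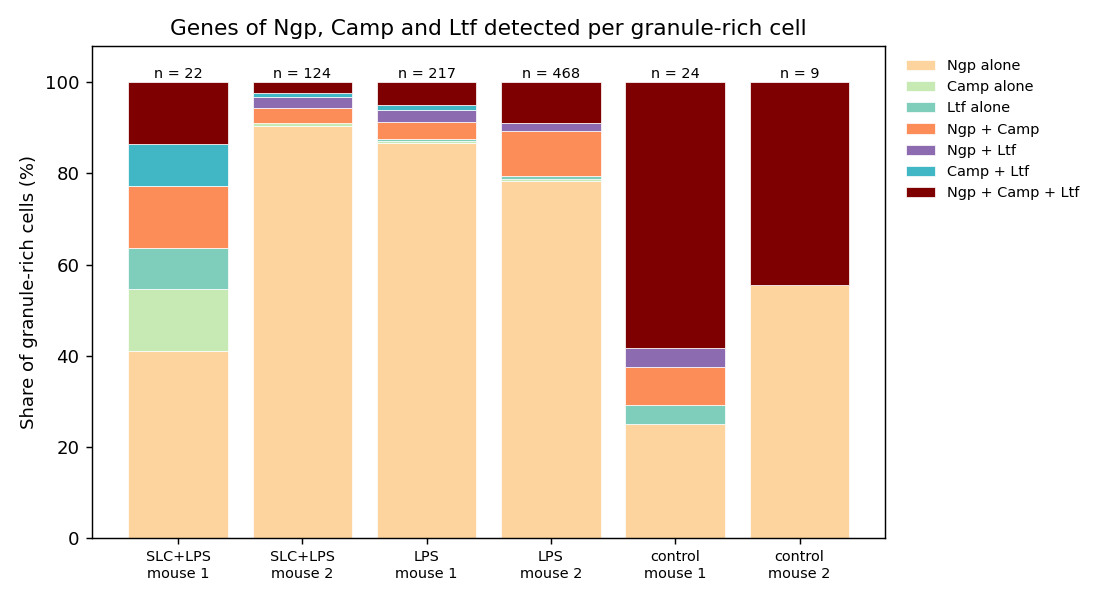
Granule-rich cells of each library (x axis) by which of Ngp, Camp and Ltf were detected (y axis, % of granule-rich cells). All 3 genes were detected in 14 of 24 and 4 of 9 control cells, and in 11 of 217 and 42 of 468 LPS cells.

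Both LPS libraries held a larger share of granule-rich cells among neutrophils than any other library. The shares were 0.385% (95% exact binomial interval 0.241% to 0.582%) and 2.73% (2.27% to 3.24%) in SLC+LPS, 5.18% (4.53% to 5.89%) and 12.5% (11.5% to 13.6%) in LPS, and 1.52% (0.976% to 2.25%) and 0.664% (0.304% to 1.26%) in control libraries. SLC+LPS and control libraries overlapped. Means were 1.56 ± 1.66% in SLC+LPS, 8.84 ± 5.18% in LPS and 1.09 ± 0.604% in control mice (SD, n = 2 each). Two-sided exact permutation tests gave p = 0.333 for SLC+LPS against LPS and for LPS against control, the smallest p that 2 against 2 mice allow, and p = 1 for SLC+LPS against control. The intervals cover counting error only.

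These shares depend on depth and background. Background was read from cells with at least 1 UMI of Cd3e or Cd79a, called T and B cells here, which should lack the 3 genes. A neutrophil with a stray UMI of either gene, or 2 cells under 1 barcode, would count among them. These values may thus overstate the background. Of these cells, those with at least 2 UMIs of Ngp, Camp and Ltf were 0 of 487 (which allows a share of up to 0.616%) and 0.496% in SLC+LPS. They were 2.20% and 0.265% in LPS, and 0.377% and 0.228% in control libraries. The T and B cells had a median of 1763 and 1795, 1951 and 2074.5, and 1629 and 1458 UMIs in that order. The share in SLC+LPS mouse 1 is under the limit of this background and cannot be told from it. Even so, 5 of its 22 granule-rich cells held 20 or more UMIs of the 3 genes, 1228 in all. With each neutrophil thinned to 500 UMIs the shares were 0.14% and 0.968% in SLC+LPS, 2.00% and 4.35% in LPS, and 1.08% and 0.295% in control libraries. Over all neutrophils Ngp had 143 and 213 CPM in SLC+LPS, 553 and 1529 CPM in LPS and 1230 and 408 CPM in control libraries. This level goes with the share for SLC+LPS and LPS but not for LPS and control, and no order of LPS and control is read from the share.

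Split by the genes detected, Ngp-alone cells averaged 1.31 ± 1.63% of neutrophils in SLC+LPS, 7.15 ± 3.76% in LPS and 0.374 ± 0.0076% in control mice (SD, n = 2 each). The share of Ngp-alone cells was 0.157% in SLC+LPS mouse 1 and 0.38% and 0.369% in control mice. These lie at or near the T and B cell values above, which count all 3 genes, and by share alone cannot be told from that background. Retnlg had 20980 and 23967 CPM in control Ngp-alone cells, against 3561 and 3276 CPM in other neutrophils. In SLC+LPS mouse 1 it had 29568 against 2362 CPM. Chil3 had 371 and 397 against 364 and 352 CPM in control libraries and 1375 against 1429 CPM in SLC+LPS mouse 1. The part of stray UMIs was not tested. All-3 cells averaged 0.0592 ± 0.00956% in SLC+LPS, 0.692 ± 0.608% in LPS and 0.591 ± 0.418% in control mice. For all-3 cells both SLC+LPS libraries lay under both LPS and both control libraries (exact permutation p = 0.333 each, the smallest possible), whereas LPS and control overlapped (exact permutation p = 1). The SLC+LPS values are 3 cells in each library. In control mouse 1, 66.7% of granule-rich cells were in the top 6% of doublet scores. Without such cells its share of all granule-rich cells was 0.533%. The share has all neutrophils below the line, and these were 42.6% and 35.1% of kept cells in SLC+LPS, 30.6% and 32.2% in LPS and 12.5% and 10.9% in control libraries. Of all kept cells, granule-rich cells were 0.164% and 0.958% in SLC+LPS, 1.58% and 4.03% in LPS and 0.189% and 0.0723% in control libraries.

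**Figure D3:**
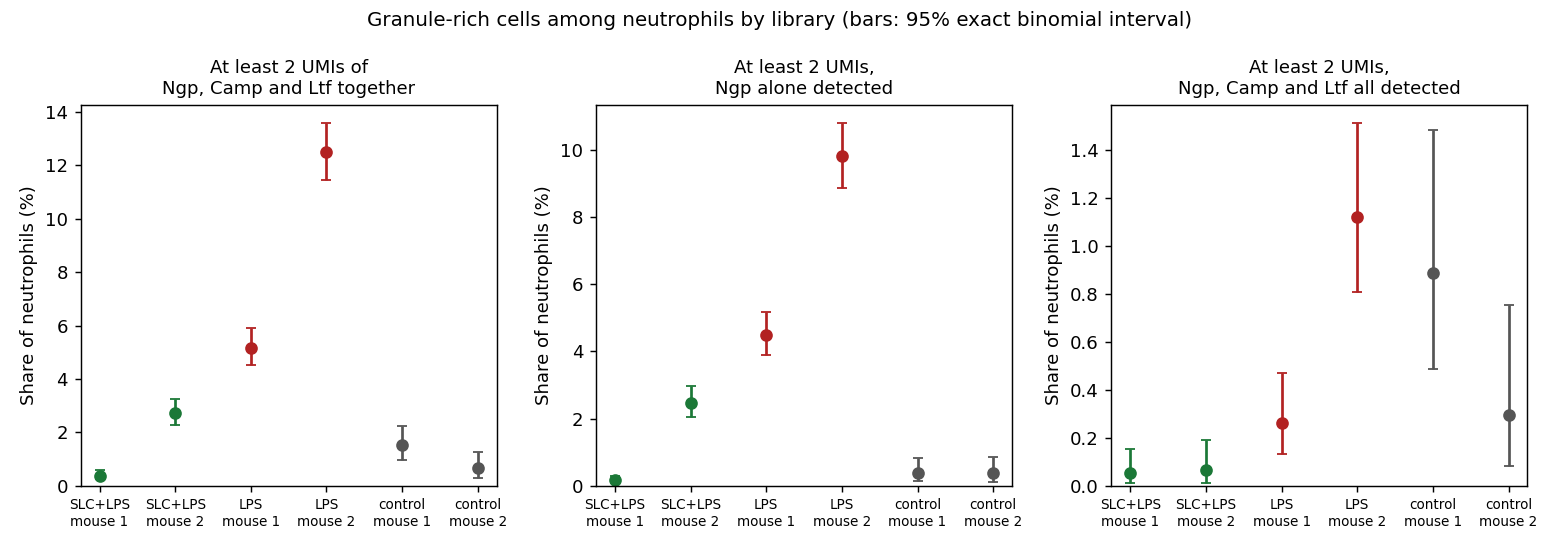
Granule-rich cells, and those with all 3 genes or Ngp alone, as a share of neutrophils (y axes, %) in each library (x axis), with 95% exact binomial intervals. LPS libraries (5.18% and 12.5%) stand above the others for all granule-rich cells, and overlap control libraries for cells with all 3 genes.

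The threshold of 2 UMIs does not fall in a gap. Neutrophils with 1 UMI of the 3 genes numbered 150 and 229 in SLC+LPS, 341 and 356 in LPS and 60 and 18 in control libraries, and those with 2 UMIs numbered 11 and 57, 69 and 96, and 6 and 3 in that order.

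Set against the other neutrophils of their library, summed granule-rich cells had more mRNA of granule and marrow-stage genes and less of cytokine and interferon genes. Ngp-alone cells, most of the members, did not share all of this. Their Chil3 was lower than in other neutrophils, at 1375 and 489 against 1429 and 943 CPM in SLC+LPS. In LPS it was 314 and 115 against 679 and 202 CPM. Retnlg and Lcn2 were higher in Ngp-alone cells than in other neutrophils of each library. The granule genes chose the cells, so these values are a description with no test, and the 15 genes of the rule are left out. At adjusted p under 0.05 the fit of all genes marked 447 of 8925 higher (5.01%) and 739 lower (8.28%). Nothing is read from these counts, nor from the counts marked in each list below, as Ngp, Camp and Ltf chose the cells. The specific granule list had 12 of 14 genes marked higher and a median log2 fold change of 1.79, against −0.16 over all genes. The gelatinase granule list had 6 of 12 marked higher and a median of 0.61.

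Serpinb1a had 406 and 146 CPM in granule-rich cells of SLC+LPS mice, 142 and 94.7 CPM in those of LPS mice and 569 and 625 CPM in those of control mice, against 4.5 to 14.7 CPM in other neutrophils (log2 fold change 4.59, SE 0.23). Ifitm6, of the interferon-induced transmembrane family, had 2127 to 4428 CPM in granule-rich cells and 89.6 to 344 CPM in the others (3.81, SE 0.29). Cd177, a neutrophil surface protein held in specific granules, had 32.5 to 260 CPM in granule-rich cells and 5.42 to 13.8 CPM in the others (3.56, SE 0.26). Ly6g, the surface protein by which mouse neutrophils are sorted, had 731 to 1729 CPM in granule-rich cells and 32.5 to 606 CPM in the others (3.45, SE 0.28). All 4 were higher in granule-rich cells of each of the 6 libraries. Ly6a2 (4.62, SE 0.69), Adpgk (3.88), an ADP-dependent glucokinase, the integrin subunit Itgb2l (3.87), Mgst2 (3.28), Fmo5 (2.93) and Rab3d (2.90), a GTPase of secretory granules, complete the 10 largest differences. Ly6 genes are near-identical to each other in part, so counts may be split between them.

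Of the gelatinase stage, Mmp8, the neutrophil collagenase, had 3330 and 8110 CPM in granule-rich cells of SLC+LPS mice, 5654 and 9272 CPM in those of LPS mice and 4821 and 7502 CPM in those of control mice, against 1094 to 3135 CPM in other neutrophils. Retnlg (log2 fold change 2.05), Padi4 (1.87), which citrullinates histones, and Mmp25 (1.76), a membrane-bound protease, were higher as well. Lcn2 was higher by 1.45 (SE 0.28), a difference that was 0.74 for Ngp-alone cells. Cybb, the catalytic subunit of the NADPH oxidase, was higher by 1.48, and the other 5 oxidase genes were not marked.

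The late neutrophil list had 13 of 14 genes marked lower and a median log2 fold change of −1.14. Il1a, which encodes interleukin 1 alpha, had 127 to 1798 CPM in granule-rich cells and 580 to 5217 CPM in the others (−1.57, SE 0.29). Siglecf, a sialic acid receptor of some tissue neutrophils, had 0 to 14 CPM in granule-rich cells and 17.2 to 56.8 CPM in the others. Csf1 (−1.92), a macrophage growth factor, Ptgs2 (−1.80), a prostaglandin synthase, and Tnf (−1.33) were lower too. The interferon list had 14 of 22 genes marked lower and a median of −1.34, with Ifit2 at 0 to 17 CPM in granule-rich cells and 11.4 to 145 CPM in the others.

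The LPS response list had 6 of 16 genes marked lower, among them Il1rn (−1.74), the interleukin 1 receptor antagonist, and Il1b (−1.07). Cxcr4, the receptor that holds neutrophils in marrow, had 48.7 to 136 CPM in granule-rich cells and 128 to 343 CPM in the others (−1.33, SE 0.25). Clec4n (−2.54), a lectin receptor, Ifi207 (−2.25), Gbp4 (−2.17), Slc38a1 (−2.10), Bcor (−1.98), Gbp9 (−1.86), Gbp3 (−1.83) and Gpnmb (−1.82), with Ifit2 (−2.83) and Csf1, are the 10 largest differences downward.

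**Figure D4:**
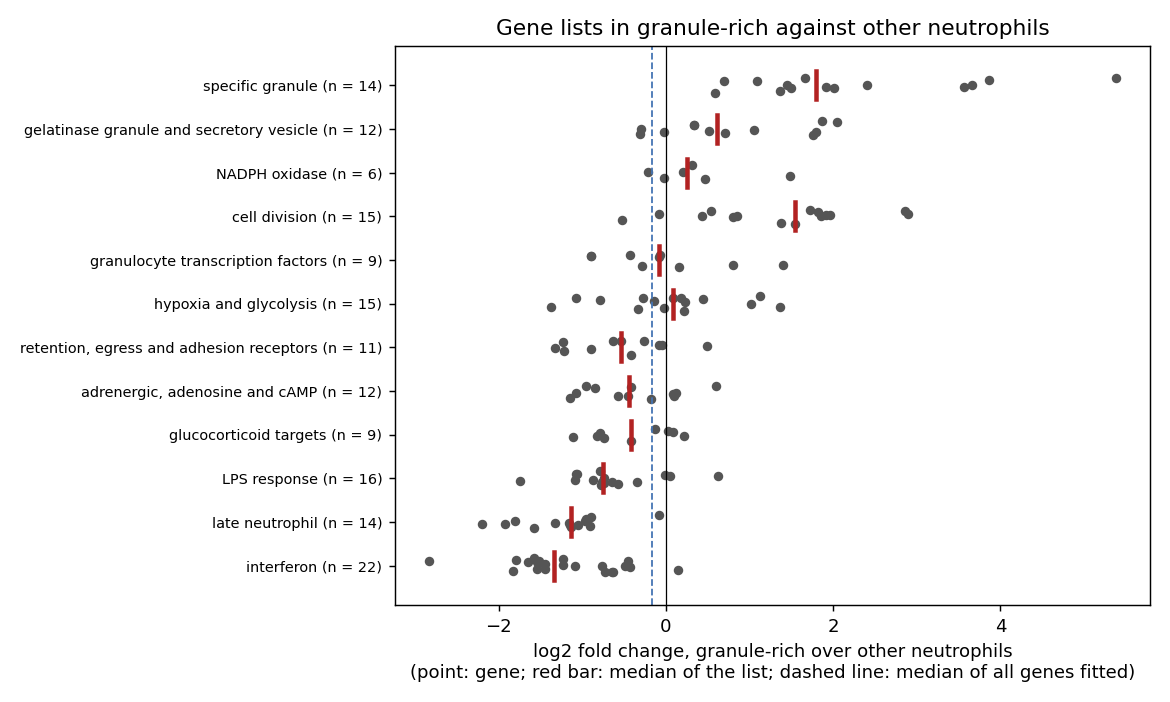
Log2 fold change of each gene (x axis, granule-rich over other neutrophils) in the gene lists (y axis), with list medians. The specific granule list has a median of 1.79, the late neutrophil list −1.14 and the interferon list −1.34, against −0.16 over all genes.

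LPS against control shows which genes of granule-rich cells differed after LPS. Of 2359 genes tested in summed granule-rich cells, 13 rose (0.551%) and 2 fell (0.0848%), 0.636% in all, at adjusted p under 0.05 (edgeR quasi-likelihood test, Benjamini-Hochberg). An unadjusted p under 0.05 was found for 304 (12.9%). Interferon-induced and interleukin 1 genes were among those that rose. Gbp2, a guanylate-binding protein of cell defence, had 886 and 1283 CPM in LPS and 75.9 and 104 CPM in control libraries (log2 fold change 3.84, SE 0.58, adjusted p = 0.024). Rtp4, an interferon-induced protein, had 329 and 571 CPM in LPS and 25.3 and 0 CPM in control libraries. The control cells held 2 UMIs of it in all, for a ratio of 25.4 with a counting interval of 7.02 to 210.

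Prok2, a secreted peptide that attracts leukocytes, had 624 and 420 CPM in LPS and no UMI in control libraries. Against a floor of 3 UMIs over the control cells it was at least 15.2-fold higher in LPS, and on the same floor Ly6i was at least 13.8-fold, Slfn5, a schlafen, at least 10.3-fold and Ifi47, an interferon-induced GTPase, at least 8.54-fold higher. Steap4, a metalloreductase, had 489 and 810 CPM in LPS and 38 and 52.1 CPM in control libraries (log2 fold change 4.11, SE 0.69). Pla2g7, which breaks down platelet-activating factor, had 459 and 901 CPM in LPS and 50.6 and 104 CPM in control libraries (3.55, SE 0.73). Wfdc17, a whey acidic protein family member, had 1692 and 1655 CPM in LPS and 139 and 365 CPM in control libraries (3.13, SE 0.60).

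Il1a had 1175 and 1106 CPM in LPS and 127 and 313 CPM in control libraries (2.77, SE 0.49). Cd14, a co-receptor for LPS, had 5877 and 5670 CPM in LPS and 1708 and 1615 CPM in control libraries (1.94, SE 0.35). Il1b had 14666 and 16669 CPM in LPS and 4543 and 5835 CPM in control libraries (1.76, SE 0.35, edgeR adjusted p = 0.038). The remaining gene that rose was Ifitm1 (2.65, SE 0.55). The libraries of the 2 groups did not overlap for any of the 15 genes, as was so for 44.5% of all genes tested.

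**Figure D5:**
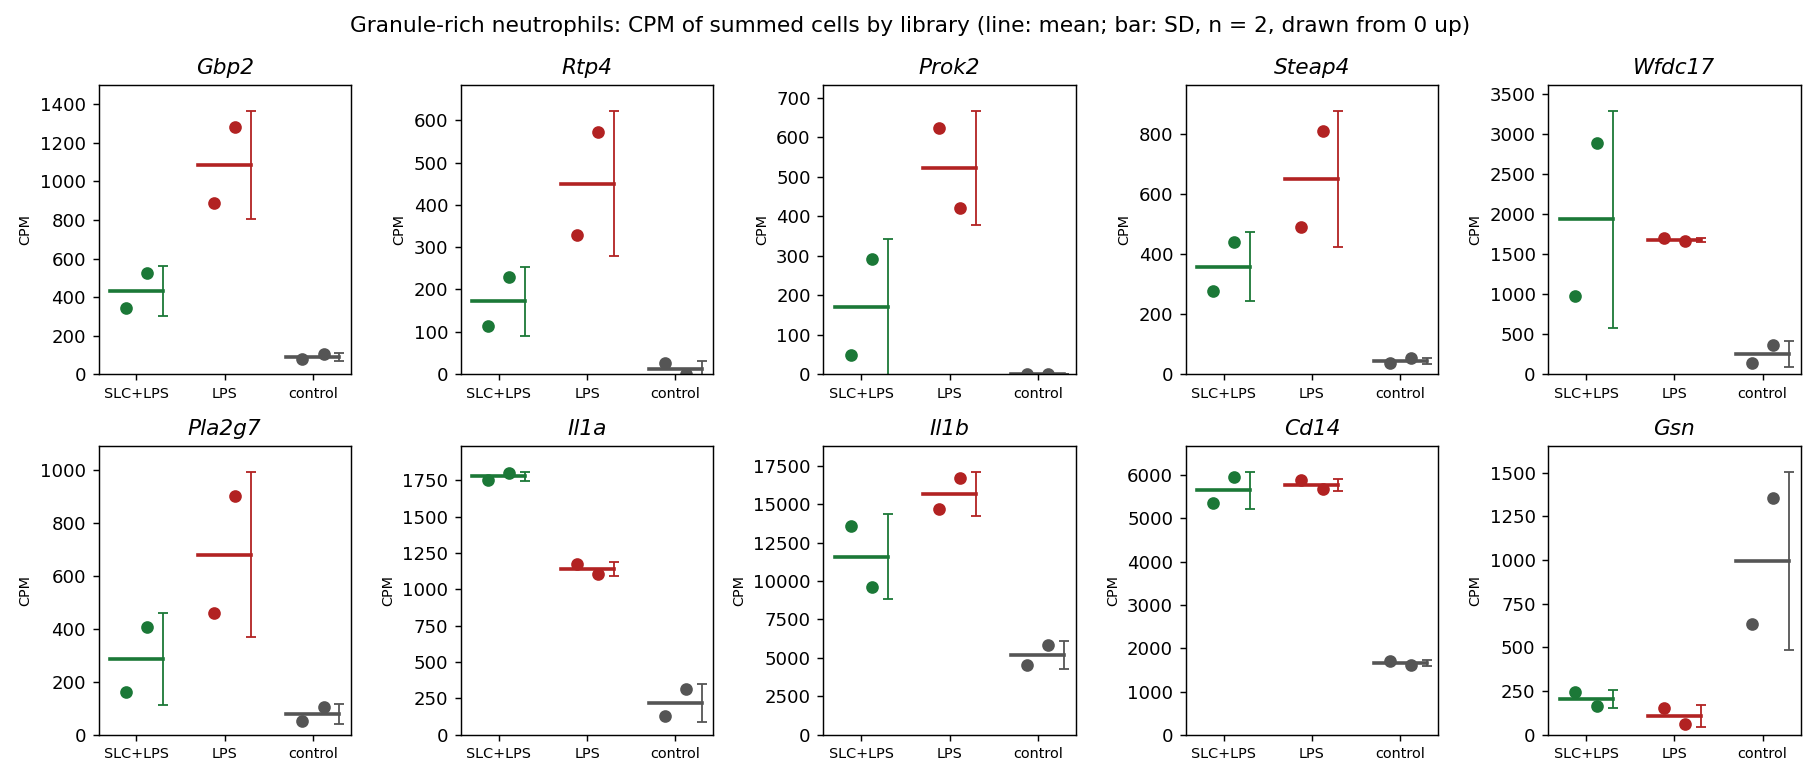
CPM of genes (y axes) in the summed granule-rich cells of each library (points), by group (x axis), with means (lines) and SD (bars, n = 2, drawn from 0 up). Gbp2 has 886 and 1283 CPM in LPS and 75.9 and 104 CPM in control libraries, with SLC+LPS libraries (341 and 523 CPM) between them.

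Within Ngp-alone cells 13 genes passed, 5 of them among the 15 above. There Gbp2 had 978 and 1474 CPM in LPS and 0 and 265 CPM in control libraries (edgeR adjusted p = 0.023), and Rtp4, Prok2 and Wfdc17 passed too. Il1b did not pass there, at 16014 and 18610 CPM in LPS and 15689 and 13771 CPM in control libraries (edgeR adjusted p = 0.50), nor did Cd14, at 6185 and 5821 CPM in LPS and 4178 and 2383 CPM in control libraries (adjusted p = 0.15). Steap4 had 535 and 934 CPM in Ngp-alone cells of LPS mice and 186 and 0 CPM in those of control mice (edgeR adjusted p = 0.10), Pla2g7 521 and 1002 CPM in LPS and 186 and 0 CPM in control mice (0.11), and Il1a 1178 and 1141 CPM in LPS and 92.8 and 530 CPM in control mice (0.081). The control side rests on 6 and 5 Ngp-alone cells and few UMIs. These cells held 0 and 2 UMIs of Gbp2, 0 and 0 of Rtp4, 0 and 0 of Prok2 and 2 and 3 of Wfdc17. They held 2 and 0 UMIs of Steap4, 2 and 0 of Pla2g7 and 1 and 4 of Il1a. Calls kept or lost for these genes are thus uncertain. In all-3 cells Il1b had 4036 and 7516 CPM in LPS and 1708 and 687 CPM in control libraries.

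Specific granule genes gave no call between LPS and control, and of the 12 genes on the gelatinase granule list Cd14 alone passed. Lcn2 had 3722 and 2514 CPM in LPS and 4277 and 3178 CPM in control libraries (log2 fold change −0.13, SE 0.36, edgeR adjusted p = 0.93). Within Ngp-alone cells it had 3398 and 2157 CPM in LPS and 1671 and 1589 CPM in control libraries, the latter from 18 and 12 UMIs. In all-3 cells it had 6818 and 4280 CPM in LPS and 5025 and 4209 CPM in control libraries, which overlap. The flat Lcn2 value over all granule-rich cells is thus also one of unlike mixtures. Chil3 had 930 and 504 CPM in LPS and 7453 and 1928 CPM in control libraries (−2.63, SE 0.70, edgeR adjusted p = 0.14). Of 11 specific granule genes none passed, and their median log2 fold change was −0.21, against 0.02 over all genes. Of 13 interferon genes 3 rose (median log2 fold change 3.48, or 3.11 with the 4 genes without a control UMI at their bound), and of 14 LPS response genes Il1b alone rose. Nos2, which makes nitric oxide, had 154 and 510 CPM in LPS and 12.7 and 0 CPM in control libraries (edgeR adjusted p = 0.057).

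Inmt, a methyltransferase of lung fibroblasts, and Gsn, which severs actin filaments, fell. Inmt had 4.01 and 4.54 CPM in LPS and 165 and 469 CPM in control libraries (−5.75, SE 1.02), and Gsn had 152 and 64.6 CPM in LPS and 633 and 1355 CPM in control libraries (−3.00, SE 0.56). The level estimated for free RNA was 74.8% of the Inmt level and 65.7% of the Gsn level. It joins the profile of near-empty barcodes to a share set by alveolar type 2, club cell and fibroblast markers in the cells. All UMIs of these markers were taken as free RNA. Inmt is on that fibroblast list, so its value is partly built in and is no independent estimate. The 8 fibroblast markers, Inmt among them, summed to 445 and 93.6 CPM in granule-rich cells of LPS mice and 1152 and 2292 CPM in those of control mice. Of these markers 0 and 1 were at 0 in LPS and 1 and 2 at 0 in control libraries. Their part in these results was not tested.

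The result leans on control mouse 1. Without it 1 gene passed (0 higher and 1 lower), against 15 with all libraries. Of its 24 granule-rich cells, 66.7% were in the top 6% of doublet scores, against 0% to 4.61% in the other libraries, and 7 genes passed without such cells.

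SLC+LPS against LPS asks what SLC activation adds. Of 2359 genes 0 passed (0%) with edgeR and 0 with DESeq2, and 80 had an unadjusted p under 0.05 (3.39%). The smallest p belonged to Mmp9, the gelatinase, with 455 and 361 CPM in SLC+LPS and 714 and 1922 CPM in LPS (log2 fold change −1.84, SE 0.50, edgeR adjusted p = 0.99). Irgm1 (−2.55), an interferon-induced GTPase, Mdm1 (−3.02), Myadm (−1.51) and Rmc1 (−2.16) came next, also with no call. Gbp2 had 341 and 523 CPM in SLC+LPS and 886 and 1283 CPM in LPS, and Retnlg had 15350 and 18650 CPM in SLC+LPS and 30717 and 38733 CPM in LPS. Il1a had 1754 and 1798 CPM in SLC+LPS and 1175 and 1106 CPM in LPS. These libraries do not overlap, as was so for 32.5% of all genes tested. Within Ngp-alone cells Il1a had 871 and 1867 CPM in SLC+LPS and 1178 and 1141 CPM in LPS, which overlap, while Gbp2 had 183 and 531 CPM in SLC+LPS and 978 and 1474 CPM in LPS.

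The gelatinase granule list had 0 of 12 called between SLC+LPS and LPS and a median log2 fold change of −0.48, and the interferon list 0 of 13 and −0.61, against 0.00 over all genes. The 2 SLC+LPS libraries differed in Chil3, with 3606 and 1040 CPM. Without LPS mouse 1, 41 genes passed (22 higher and 19 lower), and without SLC+LPS mouse 1, 1 did.

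SLC+LPS against control gave 1 gene (0.0424%), with 198 at an unadjusted p under 0.05 (8.39%) and 39.2% of genes without overlap of libraries. Il1a rose, with 1754 and 1798 CPM in SLC+LPS and 127 and 313 CPM in control libraries (log2 fold change 3.30, SE 0.50, edgeR adjusted p = 0.023). Wfdc17 had 975 and 2885 CPM in SLC+LPS and 139 and 365 CPM in control libraries (edgeR adjusted p = 0.080), and Thbs1, which encodes thrombospondin, 910 and 622 CPM in SLC+LPS and 3429 and 3595 CPM in control libraries (edgeR adjusted p = 0.080). Within Ngp-alone cells Il1a had 871 and 1867 CPM in SLC+LPS and 92.8 and 530 CPM in control libraries and did not pass (edgeR adjusted p = 0.13), and 3 other genes did. Without control mouse 1 no gene passed, and without any other library 3 to 43 did. This comparison shares its control mice with that of LPS.

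Adora2b, an adenosine receptor that raises cAMP, had 1 and 1 UMIs in granule-rich cells of SLC+LPS mice, 5 and 90 in those of LPS mice and 0 and 0 in those of control mice. Adora2b thus had 16.2 and 5.23 CPM in SLC+LPS, 10 and 51 CPM in LPS and 0 and 0 CPM in control libraries. In other neutrophils Adora2b had 50.2 and 68.8 CPM in SLC+LPS, 56.5 and 77.7 CPM in LPS and 0.916 and 0.678 CPM in control libraries. Of the list of adrenergic, adenosine and cAMP genes, 6 of 16 had counts enough for the test, and 0 passed in each of the 3 comparisons.

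Whether a difference between conditions was itself unlike that in other neutrophils was tested by an interaction over both classes. For LPS against control, 392 of 8925 genes passed (4.39%), 361 higher (4.04%) and 31 lower (0.347%), with a median over all genes of 0.56 on the log2 scale. With RLE factors the median was 0.05 and the split 119 higher and 52 lower, and with Ngp-alone cells the median was 6.21 and the split 252 higher and 0 lower. The 8925 genes passed a low-count filter over both classes, whereas 2359 were tested in granule-rich cells alone. Genes added in this way had low counts in granule-rich cells, whose control sums held 79024 and 19195 UMIs. The numbers higher and lower, and the medians, are thus not read as a result. Il1b had an interaction of 2.25 (SE 0.28): it was 14666 and 16669 CPM in LPS and 4543 and 5835 CPM in control granule-rich cells, while other neutrophils had 20348 and 21420 CPM in LPS and 19712 and 18604 CPM in control libraries. For SLC+LPS against LPS, 1 gene passed (0.0112%), the ATP-gated channel gene P2rx7, and 361 had an unadjusted p under 0.05 (4.04%).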

How the data were processed

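Lung cells were profiled by single-cell RNA sequencing (BD Rhapsody, per the labels' protocols). The authors deposited unfiltered UMI counts per gene and barcode; for the aligner and counter nothing is stated, and GRCm 39 (mm 39) is the build in the submitters' processing notes. The members and the gene lists were chosen with earlier results of these data known. Raw counts were summed per library over granule-rich cells and over other neutrophils. Sums were tested with edgeR 4.0.16 (R 4.3.3; TMM, filterByExpr, robust quasi-likelihood) in 1 fit of all 6 libraries, with a library term and an interaction for the class comparison, and Benjamini-Hochberg adjustment over all genes. DESeq2 1.42.0, other gates, thinning to 500 UMIs, doublet scores (Scrublet in scanpy 1.11.5; the top 6% left out as an alternative, none removed from the main result) and leaving out each library were alternatives. The caller itself marked under 0.5% of cells in 3 of the 6 libraries and was not used. Free RNA was profiled in barcodes of 10 to 100 UMIs. Named genes were the 10 largest calls in each direction with at least 50 CPM and no overlap of libraries, without gate genes, or the 5 smallest p where under 5 passed, up to 4 per list, and a fixed set with Lcn2, Mmp8, Il1b and Adora2b; 1 gene of that set is not reported here. Ifitm1 was added after its values were seen, and the Ngp-alone and all-3 settings and the gate of 20 UMIs were added after seeing the data. Each library is 1 mouse per the labels. The edgeR p-values between groups rest on the spread between mice of a group, pooled over the 3 groups and shared in part across genes. Those of the class and interaction fits rest on the spread of class differences between libraries. Counting error in small sums is part of both.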

Additional observations from a re-analysis of the deposited data

Results flagged for a closer look

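For 10 named genes the difference between LPS and control in granule-rich cells was itself different from that in other neutrophils (edgeR interaction; 392 of 8925 genes, 4.39%, with a median over all genes of 0.56 on the log2 scale, 0.05 with RLE factors, 6.21 within Ngp-alone cells and 5.92 without control replicate 1). Chance and the mixture of cells were not tested. The difference of differences was positive for Il1b (2.25), Pim1 (2.26), a kinase, Acod1 (2.04), which makes itaconate, and Clec4d (1.94), a lectin receptor. These 4 passed the threshold in each of the 14 alternatives, but in Ngp-alone cells they lay under the median of all genes. They were 1.54, 1.91, 1.58 and 2.07 there for Il1b, Pim1, Acod1 and Clec4d, still positive. The median itself rests on control Ngp-alone sums of 10772 and 7552 UMIs, in which most genes had few or no UMIs. No direction against other genes is read from it. Without control replicate 1 these 4 genes also lay under the median of all genes. Ngp-alone cells had 16014 and 18610 CPM of Il1b in LPS and 15689 and 13771 CPM in control mice. Other neutrophils had 20348 and 21420 CPM of it in LPS and 19712 and 18604 CPM in control mice. These levels give no clear difference of differences, so the Il1b call with Ngp alone is not read as support. The difference of differences was negative for Ffar2 (−5.70), a fatty acid receptor, Ly6a2 (−3.50), Fmnl2 (−2.99), Ly6g (−2.52), Zmpste24 (−2.45) and Lcn2 (−1.14). Each of these 6 lost the call in at least 1 alternative. Lcn2 had 3722 and 2514 CPM in granule-rich cells of LPS mice and 4277 and 3178 CPM in those of control mice. Other neutrophils had 2158 and 1007 CPM in LPS and 521 and 451 CPM in control mice. Within Ngp-alone cells Lcn2 was higher in LPS mice (3398 and 2157 CPM) than in control mice (1671 and 1589 CPM). Between SLC+LPS and LPS, P2rx7, an ATP-gated channel, differed in the same way (3.35; 1 gene of 8925, 0.0112%), with 130 and 41.8 CPM in granule-rich cells of SLC+LPS mice and 24.1 and 3.4 CPM in those of LPS mice. These rest on 8 and 8 UMIs of P2rx7 in SLC+LPS and 12 and 6 in LPS mice, and the call was kept in 7 of 13 alternatives. It was lost with at least 5 UMIs of the granule genes, with at least 1000 UMIs a cell, with Ngp alone, with DESeq2, without LPS replicate 2 and without SLC+LPS replicate 1.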

How the results depend on the processing

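For LPS against control, 15 genes passed, against 7 without the top doublet scores, 39 with DESeq2, 70 with no low-count filter, 8 without genes prone to free RNA, 28 in a fit of the 4 libraries and 1 to 131 with 1 library left out. For SLC+LPS against control, 1 passed, against 4 with at least 5 UMIs, 3 without top doublet scores, 3 with Ngp alone, 12 with DESeq2, 12 with no filter, 4 without genes prone to free RNA, 4 in the 4 libraries and 0 to 43 with 1 left out; SLC+LPS against LPS gave 0, and 0 to 41 with 1 left out. The class difference marked 1186 genes, 1892 with all 3 genes, 719 with DESeq2, 466 without genes prone to free RNA and 561 to 1314 with 1 left out. The interaction for LPS marked 392, against 186 (doublet scores), 252 (Ngp alone), 123 (DESeq2), 171 (RLE), 238 (no filter), 156 (free RNA) and 53 to 492 with 1 left out. That for SLC+LPS against LPS marked 1, against 0 with at least 5 UMIs, at least 1000 UMIs, Ngp alone or DESeq2, 2 with RLE or without genes prone to free RNA, and 0 to 17 with 1 left out. Share differences in percentage points were 7.75 for LPS minus control (0.892 at 20 UMIs, 2.49 thinned, 0.102 for all 3 genes), −7.28 for SLC+LPS minus LPS (−1.47 at 20 UMIs, −0.633 for all 3 genes) and 0.465 for SLC+LPS minus control (−0.244 at 5 UMIs, −0.577 at 20, −0.132 thinned, −0.531 for all 3 genes, −0.707 to 1.64 with 1 left out). Signs turned, with the cause not tested, for the interaction without top doublet scores (Chil3 0.24, Pclaf 7.14), with Ngp alone (median of all genes 6.21; Ffar2 5.03, Fnbp1l 7.32, Gpr84 6.46, Def8 6.10, Fmnl2 8.04, Aoah 7.32, Chil3 0.37, Wfdc21 0.25, Pclaf 3.57, Lcn2 0.56) and without control replicate 1 (median of all genes 5.92; Pclaf 6.98, with −3.39 the lowest when 1 library is left out), for the class difference with Ngp alone (Pclaf −1.79, Top2a −0.73), and for SLC+LPS against LPS without LPS replicate 1 (H2-Ab1 4.03).

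Same-numbered libraries were not treated as pairs: deviations correlated at 0.126, 0.0632 and 0.0112. Sums of as few as 9 cells hold much counting error, so these low values cannot exclude a tie between such libraries. With the replicate block 32 genes passed for LPS against control, 4 for SLC+LPS against control and 0 for SLC+LPS against LPS. The 33 control cells limit all comparisons with control.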

Other observations

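Some granule-rich cells held mRNA of cell division genes. A UMI of Mki67 or Top2a was found in 3 of 22 (13.6%) and 3 of 124 (2.42%) granule-rich cells of SLC+LPS mice, 14 of 217 (6.45%) and 23 of 468 (4.91%) of LPS mice, and 4 of 24 (16.7%) and 0 of 9 (which allows up to 33.3%) of control mice. In other neutrophils the shares were 4.62% and 6.22% in SLC+LPS, 8.91% and 7.30% in LPS and 3.08% and 3.94% in control libraries. Thinned to 500 UMIs a cell, the shares in granule-rich cells were 9.09% and 0 of 124 (up to 2.42%) in SLC+LPS, 2.30% and 1.28% in LPS, and 0 of 24 (up to 12.5%) and 0 of 9 (up to 33.3%) in control mice, and in other neutrophils 1.67% and 3.30%, 3.88% and 2.87%, and 1.22% and 1.86% in that order. Of 15 cell division genes tested, 11 were marked higher and 0 lower in granule-rich cells, with a median log2 fold change of 1.54, a description with no test. These sums rest on few cells. In LPS mouse 2, 42 UMIs of Mki67 lay in 11.9% of its 42 all-3 cells, and 46 of Top2a in 7.14%. The sums and the shares of cells differ, as the thinned share was above that of other neutrophils in SLC+LPS mouse 1 alone. Pclaf, a factor of DNA replication, had 1107 and 92.1 CPM in all-3 cells of SLC+LPS mice, 149 and 166 CPM in those of LPS mice and 181 and 0 CPM in those of control mice. It had 0 to 5.97 CPM in Ngp-alone cells, from 0 and 1 UMIs in SLC+LPS, 1 and 1 in LPS and 0 and 0 in control mice. The turned signs of Pclaf given above, with Ngp alone and without control replicate 1, thus rest on few or no UMIs in the control cells.

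Of 15 hypoxia and glycolysis genes, 3 (Ldha, Pgk1 and Gapdh) were marked higher in granule-rich cells and 3 (Bnip3, Egln3 and Vegfa) lower, with a median log2 fold change of 0.08, against −0.16 over all genes. Pgk1 had 441 to 990 CPM in granule-rich cells and 155 to 241 CPM in other neutrophils, and Gapdh had 78.3 to 323 CPM in granule-rich cells and 36.6 to 134 CPM in other neutrophils.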
